A study of Mus musculus with 10 samples.

Results

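Sense intronic genes are annotated long noncoding transcripts that lie within an intron of a longer gene and run in the same direction as it. The 138 genes described here were all those with this biotype among the 15899 genes of the series, and no measured value was used to choose among these. The authors had filtered the genes before deposit. Of the 327 sense intronic genes of the GENCODE M21 annotation, 137 were among those kept, so the class described is a part of the annotated one. RNA was pulled down with an antibody against FLAG from neurospheres, floating cultures of adult neural stem cells (NSCs) grown with EGF and FGF from the brain subependymal zone of mice aged 10 weeks. Mex3aFLAG/FLAG cultures carried a FLAG peptide on MEX3A at its own locus, in both alleles. Untagged wild-type cultures of the same background (WT) went through the same pull-down and measured RNA that sticks without the tagged protein. Cells of 2 FLAG and 2 WT libraries were crosslinked with formaldehyde before the pull-down, and the other 3 FLAG and 3 WT libraries were native, without crosslinking. Input RNA was not analysed here, so every level is that of a pull-down. The methods call the replicates biological replicates of the cultures, and neither they nor the labels tie each library to a separate animal, so p-values measure the spread between these samples, which may be technical.

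MEX3A is an RNA-binding protein with KH domains, and it is mostly known for acting on mature messenger RNA in the cytoplasm. Introns are cut out and degraded in the nucleus, so intronic sequence in a pull-down comes from precursor RNA, from excised introns or from separate transcripts that start within the intron. A short read within a sense intronic gene does not tell these sources apart. The class therefore serves as a measure of intronic RNA, set between FLAG and WT and between crosslinked and native libraries. In these bulk samples, fewer cells of a type and less RNA per cell cannot be told apart.

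Of the 138 genes, 136 lay within a protein-coding gene on the same strand, and these 113 hosts were all measured. The other 2, Gm26575 and Gm26930, had no such host. By the GENCODE M21 annotation on GRCm38, 128 lay in a single intron of the longest coding transcript of the host, 46 of them in intron 1. The median span was 3058.5 bases (124 to 64853), against 136950 bases for the hosts. A single exon made up 65 of the genes, and 73 had several. They were spread unevenly over the genome, with 29 on chromosome 3, 19 on chromosome 1 and 15 on chromosome 5. Of the hosts, 101 held 1 gene each and 12 held 35 genes between them, led by Cdk14 with 6 and Magi3 with 5. Genes of 1 host are not independent of each other.

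The values behaved as reads over whole gene spans, introns included, from either strand. In 3506 pairs where one gene lay wholly within another, the inner gene was above the outer gene in 0 pairs in any library, and 1679 of those pairs ran on opposite strands. How the reads were assigned to features and strands was not given in the sources used here. A read in a sense intronic gene was therefore also a read of its host, and levels per kilobase below use the whole span. For the 4 genes that overlap a coding gene on the other strand, reads from it could not be told apart. For 6 genes the span overlaps an annotated exon of the host, which are Gm28967, Gm39038, Gm44836, Gm45148, Gm45311 and AC140264.1.

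A shared sequence feature lay just beyond the annotated ends. In the 20 genomic bases after the end, the 138 genes held a median of 8.5 A, against 3 for protein-coding genes, 5 for lincRNAs and 4 over all genes. At least 12 of these 20 bases were A in 54 genes (39.1%), against 3.69% of protein-coding genes. The share was 58.5% of the 65 genes with 1 exon and 21.9% of the 73 with several. TEC genes, a class of mostly unspliced transcripts that await experimental testing, had 59.0%. Such a stretch of genomic A is where an oligo-dT primer can start within an RNA without a poly(A) tail. The libraries of this study were primed with random hexamers. The windows below show it for the 2 genes with 20 A and for the 4 genes that pass the test further on, with the 20 bases before the annotated end in lower case and the 20 bases after it in capitals.

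Gm19938 (in Xkr4), chr1:3647289-3647328, minus strand: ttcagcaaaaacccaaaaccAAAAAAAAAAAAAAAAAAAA
A530041M06Rik (in Lrig2), chr3:104499300-104499339, minus strand: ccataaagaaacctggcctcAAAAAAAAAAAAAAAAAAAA
Gm45148 (in Zfp444), chr7:6183542-6183581, plus strand: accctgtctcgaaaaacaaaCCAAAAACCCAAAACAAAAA
Gm38190 (in Tiprl), chr1:165230351-165230390, minus strand: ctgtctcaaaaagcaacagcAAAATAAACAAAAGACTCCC
Gm26971 (in Gse1), chr8:120521667-120521706, plus strand: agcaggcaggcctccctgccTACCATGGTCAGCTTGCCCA
Gm42664 (in Ptbp2), chr3:119743188-119743227, minus strand: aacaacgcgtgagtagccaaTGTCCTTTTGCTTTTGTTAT

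Gm45148 held 14 A and Gm38190 held 12 A in the window after the end, while Gm26971 held 4 and Gm42664 held 1. The A count after the end had no clear relation to FLAG over WT across the genes (Spearman's rho -0.05 crosslinked and -0.00 native, n = 138 genes that share libraries and hosts, a description only).

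**Figure D1:**
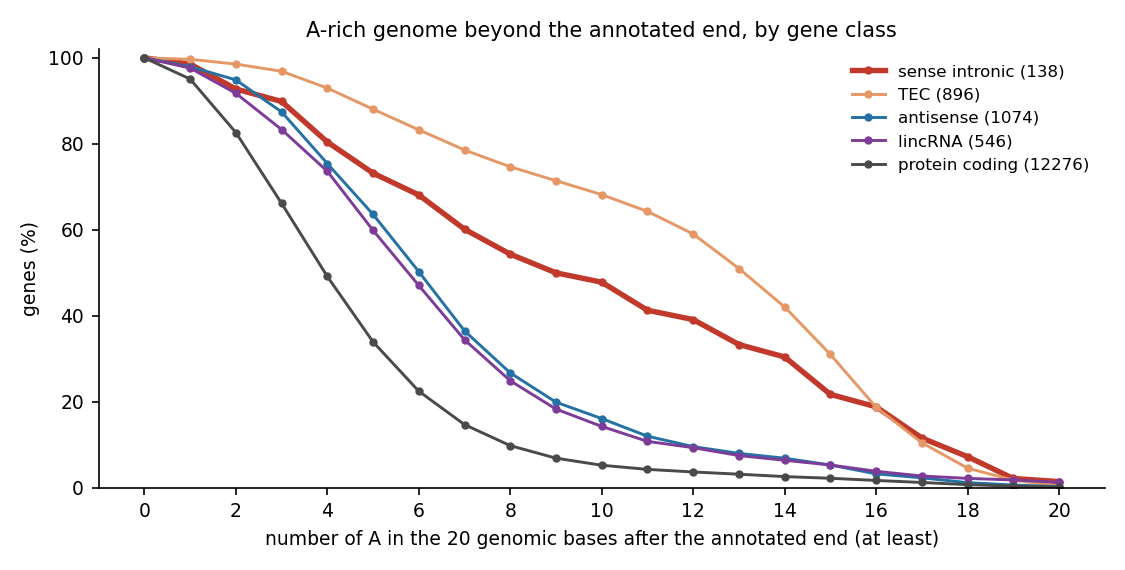
Share of genes (y axis, percent) with at least the given number of A (x axis) in the 20 genomic bases after the annotated end, by gene class, with the number of annotated genes in brackets. At 12 A or more the sense intronic curve stands at 39.1% and the protein-coding curve at 3.69%.

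The deposited values are log2 values with nearly the same distribution in each library. Ranked from high to low and leaving out the lowest 400 ranks, values of equal rank were within 0.14 of each other in the 10 libraries, so a median over all genes hardly moves between libraries and the depth is unknown. The sense intronic genes sat low in that distribution, which is not per length, with a median value of 1.12 over the libraries against 2.84 for all genes and 6.42 for their hosts. Per kilobase of span the order was different. The median was -0.33 on the log2 per kilobase scale for the sense intronic genes, -0.53 for the hosts, -1.13 for all genes and -0.21 for TEC genes. A sense intronic gene was denser in reads than its own host in 79 of 136 pairs, with a median difference of 0.10, and at least 2-fold denser in 12. This difference varied by library, from -0.17 (55 of 136 pairs denser) in FLAG native replicate 1 to 0.55 (103 of 136) in WT native replicate 1. It was also below 0 in FLAG native replicate 3 (-0.13) and WT native replicate 2 (-0.03).

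Libraries of the same group differed in this class. The median of the 138 genes was 1.22 and 1.11 in the FLAG crosslinked libraries and 1.50 and 1.23 in the WT crosslinked libraries. In the native FLAG libraries it was 0.59, 1.35 and 0.67 (replicates 1 to 3), and in the native WT libraries 1.50, 0.93 and 1.61. Both crosslinked FLAG medians were thus just below both WT medians, whereas the native groups overlapped, since FLAG replicate 2 stood above WT replicate 2. FLAG native replicates 1 and 3 also had most genes tied at their lowest value, 329 and 178 genes, of which 11 and 9 were sense intronic. At most 3 genes were tied so in any other library. The part of these ties in the results was not tested.

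**Figure D2:**
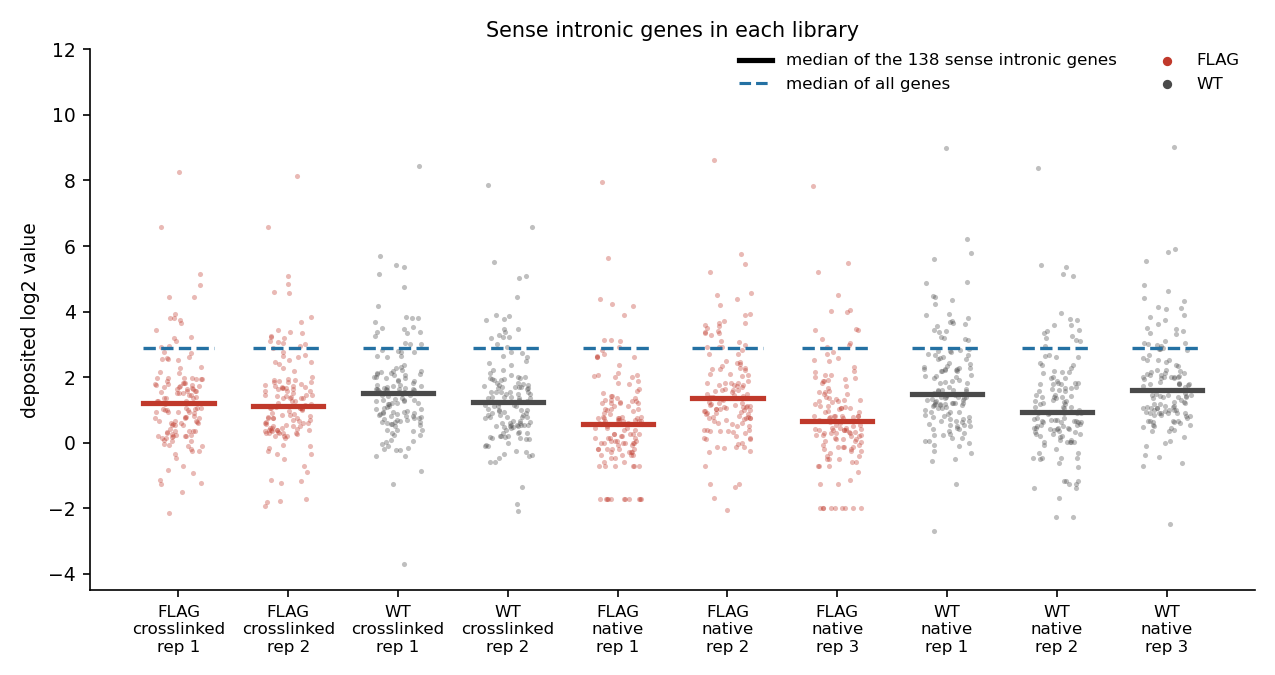
Deposited log2 values (y axis) of the 138 sense intronic genes, one point per gene, in each of the 10 libraries (x axis). Solid bars are medians of the class and dashed lines are medians of all genes. FLAG native replicates 1 and 3 have the lowest class medians (0.59 and 0.67), and FLAG native replicate 2 (1.35) lies within the WT native range of 0.93 to 1.61.

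The labels were checked against the tagged gene and the cell type. Mex3a itself was 3.92 and 4.16 in the crosslinked FLAG libraries against 2.75 and 3.03 in WT, and 5.95, 4.03 and 6.10 in native FLAG against 3.33, 3.52 and 2.89. FLAG was above WT in every library of both protocols, with native FLAG replicate 2 closest to WT (log2 fold change over all libraries 1.73 ± 0.37 SE, limma adjusted p = 0.079). All 12 neural stem cell markers listed for the check were measured, with a median level of 6.42 (1.05 to 10.46). Of the oligodendrocyte markers 1 of 5 was in the matrix, of the endothelial markers 2 of 4, of the microglial markers 3 of 5 (median 3.71) and of the neuronal markers 5 of 6 (median 3.87, 1.24 to 9.37). The stem cell and neuronal ranges overlap, and the values are not per length, so these levels do not settle the cell type.

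The first question was whether intronic RNA was recovered with MEX3A beyond the nonspecific background of WT. No sense intronic gene passed the test in either direction. In the crosslinked libraries the median log2 fold change of the 138 genes was -0.18, against -0.02 for all genes, and 106 of the 138 were below 0. Without WT crosslinked replicate 1 it was -0.045, with 58 genes above 0. In the native libraries the median was -0.59, against -0.04 for all genes, with 118 below 0. In a fit of all 10 libraries that allowed for the protocol, the median was -0.43, against -0.03 for all genes, with 120 below 0. That fit took the 10 libraries as independent. Crosslinked and native libraries of the same number and genotype deviated together (r from 0.15 to 0.39), so its p-values may be too small. A gene was called where the limma adjusted p was under 0.05 over all genes and the log2 fold change was beyond 0.58 in either direction.

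Called genes were rare altogether in these limma fits of the deposited log2 values. The study tested read counts with DESeq2 at the same thresholds and reported a set of genes enriched in both protocols. The share of all genes called was 0% crosslinked, 0.107% native and 0.497% over all libraries, so 0 of 138 was read against these. The smallest adjusted p of a sense intronic gene was 0.46 crosslinked, 0.21 native and 0.11 over all libraries. At an unadjusted p under 0.05 with the same fold, 22 genes were lower and 2 higher in native FLAG, or 15.9% and 1.45%, while over all genes 7.06% were lower and 7.77% higher. The 22 became 6 without WT native replicate 1 or 3 (527 and 491 of the 15899 genes). They became 55 without FLAG native replicate 2 (2631 of the 15899 genes). Over all libraries 18 were lower and 2 higher, against 5.28% and 7.24% of all genes. The 18 became 7 without WT native replicate 3 (504 of the 15899 genes) and 50 without FLAG native replicate 2 (1506). In the crosslinked libraries 2 were lower and 2 higher, against 0.987% and 2.78%. With 2 libraries a group, the crosslinked test also made no call of large changes placed in simulated data, so its count of 0 says nothing about the class.

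The native difference rested on which libraries were compared. FLAG native replicates 1 and 3 were below WT replicate 1 in 117 and 115 of the 138 genes, and below WT replicate 3 in 121 and 120. They were also below WT replicate 2, in 97 and 91 genes. FLAG replicate 2 was below WT replicates 1 and 3 in 87 and 97 genes (median differences -0.26 and -0.22), and above WT replicate 2 in 100 of the 138, with a median difference of 0.39, the 1 of the 9 pairs of libraries with a median above 0. Without FLAG native replicates 1 and 3, the native median was 0.013 and the median over all libraries -0.065. Without replicate 2 of both genotypes, it was -1.07 in the native libraries, and the limma test then called 44 of the 138 genes lower and 5 higher, while 13.0% of all genes were called lower and 11.8% higher. With FLAG replicate 2 alone left out, 31 were lower and 3 higher, beside 10.8% and 9.12% of all genes. In the fit of all libraries, leaving out FLAG native replicate 2 gave 2 lower and 1 higher (1.17% and 3.25% of all genes), and leaving out WT crosslinked replicate 2 gave 1 of each (1.38% and 1.14%). The calls in the native set thus depended on a single library, while its median stayed below 0 with any 1 library left out (-0.85 to -0.40).

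The count of genes below WT without overlap differed from all genes more in the crosslinked than in the native libraries. Every native FLAG library lay below every native WT library for 17 of the 138 genes (12.3%), where 10.8% of all genes did so. In the crosslinked libraries 47 genes did (34.1%), against 19.9% of all genes. Above WT without overlap were 2 genes in the native libraries (1.45%, against 8.62% of all genes). In the crosslinked libraries 7 genes were (5.07%, against 19.1%). Only 5 genes were below WT without overlap in both protocols, among them Gm43259, Gm39038, AC122197.1 and AC154335.1, which is 3.62% against 4.47% of all genes. One gene, Peg13, was above in both, against 4.84% of all genes. No difference between the protocols in FLAG over WT was detectable. The difference of native minus crosslinked had a median of -0.43 over the class and -0.04 over all genes, the smallest adjusted p was 0.97, and 0% of all genes were called. At an unadjusted p under 0.05 with the fold, 0 members passed, beside 0.233% of all genes higher and 0.182% lower.

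Other gene classes moved alongside. In the native libraries the median log2 fold change was -0.52 for TEC genes, -0.22 for antisense genes, -0.18 for lincRNAs and 0.01 for protein-coding genes. The 691 TEC genes within a coding gene on the same strand had -0.60, close to the -0.59 of the sense intronic genes, and the 106 TEC genes in no coding gene had -0.19. Coding genes sorted the same way by how little of them is exon. The tenth with the lowest exonic share (at most 3.91% of the span) had a median of -0.35 in the native and -0.06 in the crosslinked libraries. The tenth with the highest share (at least 55.9%) had 0.55 and 0.14. These medians share the libraries with those of the sense intronic genes, and nothing here was tested as particular to the class.

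**Figure D3:**
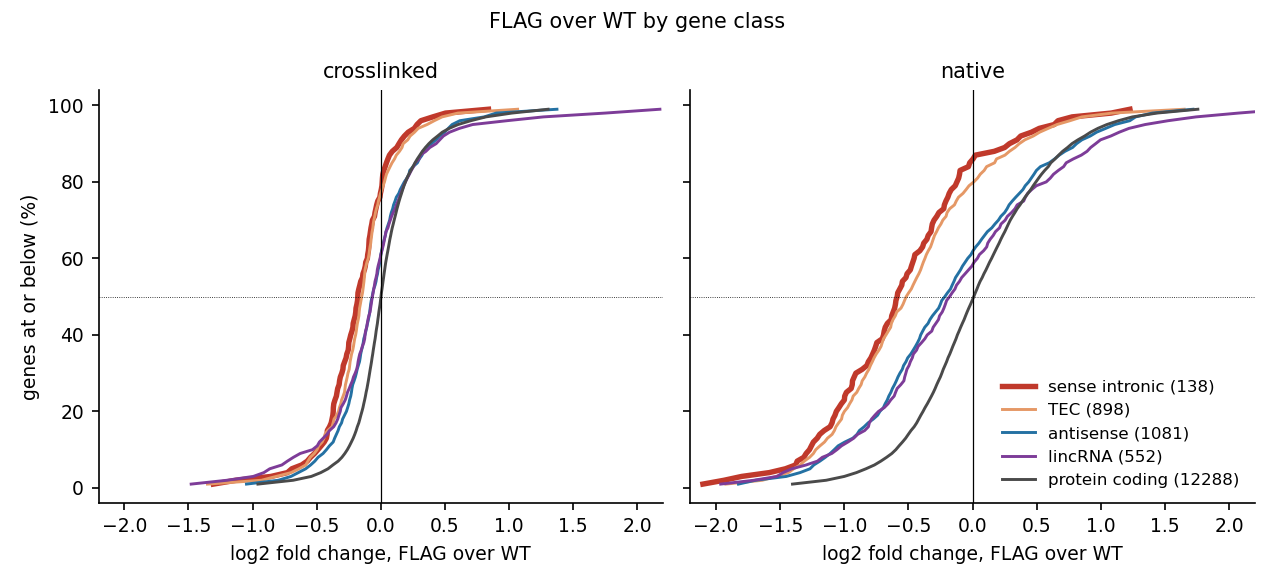
Cumulative share of genes (y axis, percent) by log2 fold change of FLAG over WT (x axis) in the crosslinked (left) and native (right) libraries, from the 1st to the 99th percentile of each class, with the number of genes in brackets. The sense intronic curve crosses 50% at -0.18 and -0.59, next to the TEC curve (-0.15 and -0.52).

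The hosts bear on these values, since a sense intronic read is also a host read. In the native libraries the 136 genes had a median of -0.60 beside -0.22 for their hosts, and 109 of them lay below the host. Crosslinked, it was -0.18 beside -0.01, with 114 below the host. The fold changes of gene and host went together (Pearson's r 0.59 native and 0.73 crosslinked over 136 pairs, a description, since pairs share libraries, reads and sometimes a host). The 5 genes in intron 1 of Magi3, which codes for a membrane-associated scaffold, ranged from -1.91 to -0.94 in native FLAG over WT beside -0.77 for Magi3. The -1.91 was that of Gm43260, which was at the lowest value of the library in FLAG native replicate 3 (-1.99). The 4 genes in Rap1a, a small GTPase, ranged from -1.24 to -0.80 beside -0.39. The 6 in the kinase gene Cdk14 ranged from -0.58 to 0.25 beside -0.19. Taking 1 mean value per host left the native median at -0.57 over 113 hosts. None of the genes in Magi3, Rap1a and Cdk14 passed the test, nor did these hosts. The host Bach2 passed over all libraries and is described below.

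**Figure D4:**
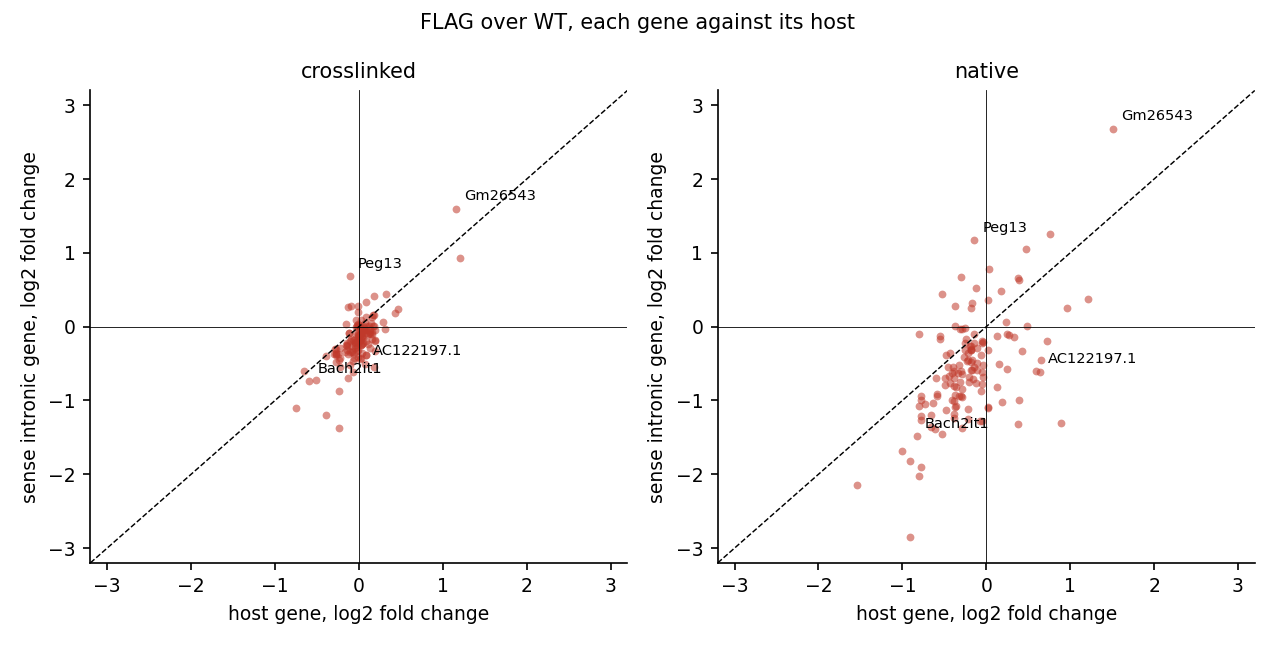
Log2 fold change of FLAG over WT for each of 136 sense intronic genes (y axis) against that of its host (x axis), crosslinked (left) and native (right), with the dashed line where both are equal. Points lie mostly below the line (114 and 109 of 136), and Peg13 stands above 0 while its host Trappc9 does not.

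The genes with the strongest FLAG over WT statistics follow, except Gm28967, which is described with the small RNA genes. Peg13 is an imprinted noncoding RNA gene transcribed from the paternal allele within intron 16 of Trappc9 (chr15:72805600-72810324, minus strand). Its level was 2.75 and 2.46 in crosslinked FLAG and 2.14 and 1.70 in crosslinked WT. In the native libraries it was 4.24, 2.82 and 4.03 in FLAG and 2.66, 2.39 and 2.54 in WT. FLAG was above WT in both protocols without overlap, by 0.98 ± 0.26 (SE) over all libraries, which did not pass (limma adjusted p = 0.11). Its host Trappc9, a gene for a trafficking complex subunit, was at -0.13 (adjusted p = 0.40). Without FLAG native replicate 2, Peg13 was at 1.19 with an adjusted p of 0.022.

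Gm26543 in intron 14 of Grik2, a kainate receptor subunit gene, had the largest value, 2.25 ± 0.74 (SE, adjusted p = 0.15). It was 1.28, 0.22 and 0.21 in native FLAG and -2.68, -1.17 and -2.49 in native WT, with no overlap. Crosslinked, the groups overlapped, with 0.55 and -0.49 in FLAG and -3.69 and 0.55 in WT. Grik2 itself was at 1.37 (adjusted p = 0.18), and WT crosslinked replicate 1 was low for both genes. Without WT crosslinked replicate 2, Gm26543 was at 3.00 with an adjusted p of 0.022. Gm15397 in Pcdh15, a protocadherin gene, was at 0.60 ± 0.42 (adjusted p = 0.40), where Pcdh15 was at 1.21 (adjusted p = 0.069). Gm15397 was at 0.92 without FLAG native replicate 1 and at 0.26 without FLAG native replicate 2. Gm42658 in Capza1, an actin-capping gene, was at 0.54 ± 0.32 (adjusted p = 0.33), and at 0.32 without WT native replicate 2.

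On the low side, Bach2it1 lies in intron 1 of Bach2, a transcription repressor gene (chr4:32251761-32265835, plus strand). It was 4.45 and 4.60 in crosslinked FLAG, below the 5.43 and 5.09 of WT. In native FLAG it was 3.12, 5.21 and 3.98 against 5.80, 5.13 and 5.83 in WT, where FLAG replicate 2 overlapped. The log2 fold change was -1.18 ± 0.34 (SE, adjusted p = 0.12), beside -0.73 for Bach2 (adjusted p = 0.041), which passed the test. Without FLAG native replicate 2, Bach2it1 was at -1.45 (adjusted p = 0.031) and Gm39038, described next, at -0.83 (adjusted p = 0.0498). Gm15521 in Ntm, a neuronal adhesion gene, was at -1.30 ± 0.39 (adjusted p = 0.13). Gm39038 in the neurotrophin receptor gene Ntrk3 was at -0.71 ± 0.21 (adjusted p = 0.13), and Gm14093 in the cation exchanger gene Slc24a3 at -0.78 ± 0.25 (adjusted p = 0.14). AC122197.1 in intron 1 of Eif4ebp2, a gene for a translation repressor, was at -0.57 ± 0.18 (adjusted p = 0.14), while its host was at 0.41 (adjusted p = 0.30). With libraries weighted by their fit (limma array weights), Gm15521 (-1.46), Gm14093 (-0.84), Bach2it1 (-0.82), Gm26543 (2.97), Gm15397 (0.80) and Gm28967 (0.84) passed, with adjusted p from 0.00045 to 0.036, where 6.95% of all genes were called higher and 6.06% lower.

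The second question was whether crosslinking changed how much intronic RNA came down. The medians of the class were small and moved with single libraries. In WT the median log2 fold change of crosslinked over native was -0.09, against 0.02 for all genes, with 83 of 138 genes below 0, and it ran from -0.34 without WT native replicate 2 to 0.05 without WT native replicate 3. In FLAG it was 0.31, against 0.11 for all genes, with 34 below 0. It was 0.01 without FLAG native replicate 1, 0.61 without FLAG native replicate 2, and -0.32 without FLAG native replicates 1 and 3. Paired by replicate number, the medians were 0.046 in WT and 0.14 in FLAG. Over all libraries, with genotype as a covariate, it was 0.10 against 0.06, and from -0.05 without FLAG native replicate 1 to 0.19 without FLAG native replicate 2. It was -0.18 with array weights and -0.15 without FLAG native replicates 1 and 3. These comparisons use the same native libraries as the one of FLAG with WT. Without pairing, no sense intronic gene passed within WT or within FLAG, where 0.0377% and 0.0692% of all genes were called. At an unadjusted p under 0.05 with that fold, 7 were higher and 5 lower in crosslinked WT, against 3.11% and 4.24% of all genes. In crosslinked FLAG 4 were higher and 2 lower, against 2.85% and 5.89%.

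Over all libraries, 3 sense intronic genes were called higher with crosslinking, 2.17% beside 1.17% of all genes, and 1 was called lower, 0.725% beside 2.94%. Gm42664 lies in intron 7 of Ptbp2, a neural splicing regulator gene (chr3:119743208-119746446, minus strand). It was 4.44 and 4.56 in crosslinked FLAG and 4.74 and 4.45 in crosslinked WT, above all native libraries, which held 2.84, 3.71 and 3.04 in FLAG and 3.93, 3.60 and 3.84 in WT. The means were 4.60 ± 0.21 (SD, n = 2) and 3.79 ± 0.17 (SD, n = 3) in WT, and the log2 fold change was 1.06 ± 0.19 (SE, limma adjusted p = 0.011). Ptbp2 was at 0.52 (adjusted p = 0.0098), short of the fold set for a call. The call of Gm42664 was lost without either FLAG crosslinked library (adjusted p = 0.056 and 0.061), and over all settings its adjusted p ranged from 0.00018 to 0.071. With the libraries paired by replicate number within genotype, it held (1.03, adjusted p = 0.031). With the number alone as a block, it did not (adjusted p = 0.071).

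Gm38190 in intron 1 of Tiprl, a gene for a regulator of TOR signalling (chr1:165230371-165235125, minus strand), had 1.64 and 1.35 in crosslinked FLAG and 1.64 and 1.55 in crosslinked WT. Native libraries had 0.66, 1.12 and 0.25 in FLAG and 0.50, 0.71 and 0.62 in WT, all below. It was higher by 0.90 ± 0.21 (SE, limma adjusted p = 0.038), beside 0.18 for Tiprl (adjusted p = 0.55). Gm45148 in Zfp444, a zinc finger gene (chr7:6179975-6183561, plus strand), had 1.64 and 1.57 in crosslinked FLAG and 1.62 and 1.78 in WT, against 0.76, 1.00 and 0.79 in native FLAG and 0.93, 0.92 and 1.22 in native WT. The groups did not overlap, and the log2 fold change was 0.72 ± 0.17 (SE, limma adjusted p = 0.037), beside 0.71 for Zfp444 (adjusted p = 0.053). The span of Gm45148 overlaps a Zfp444 exon by 45 bases. Each of these 2 calls was lost in about as many of the alternative settings as kept it, with adjusted p up to 0.16. Both were lost without any 1 of the 4 crosslinked libraries or without WT native replicate 1, and also without FLAG native replicate 3 or WT native replicate 3 for Gm38190 and without WT native replicate 2 for Gm45148. The count of 3 called higher fell to 0 without either FLAG crosslinked library (0.233% and 0.151% of all genes). It was 1 without WT crosslinked replicate 1, WT crosslinked replicate 2 or WT native replicate 1 (0.264%, 0.459% and 0.440%), and 5 without FLAG native replicate 2 (1.77%). Paired by replicate number within genotype, Gm38190 was at 0.80 (adjusted p = 0.14) and Gm45148 at 0.75 (adjusted p = 0.095), so both calls were lost.

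Gm26971 in intron 2 of Gse1 (chr8:120520615-120521686, plus strand) went the other way. It was -1.23 and -1.12 in crosslinked FLAG and -1.26 and -1.35 in crosslinked WT, and 0.28, 0.33 and 0.33 in native FLAG and 0.67, 0.36 and 0.59 in native WT. Replicates lay close together and the protocols far apart. It fell by 1.67 ± 0.25 on the log2 scale (SE, limma adjusted p = 0.0043), and Gse1 was at -0.07 (adjusted p = 0.89). The call held in 22 of the 24 settings in which the gene was tested, including each left-out library, the paired fit (adjusted p = 0.041) and the fit reported here, with adjusted p from 0.00014 to 0.072. It was lost with a pseudocount of 8 (-0.15, adjusted p = 0.015). It was also lost with GC content and length of the gene span removed (-1.10, adjusted p = 0.072). The mean level of Gm26971 was low, at -0.24.

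**Figure D5:**
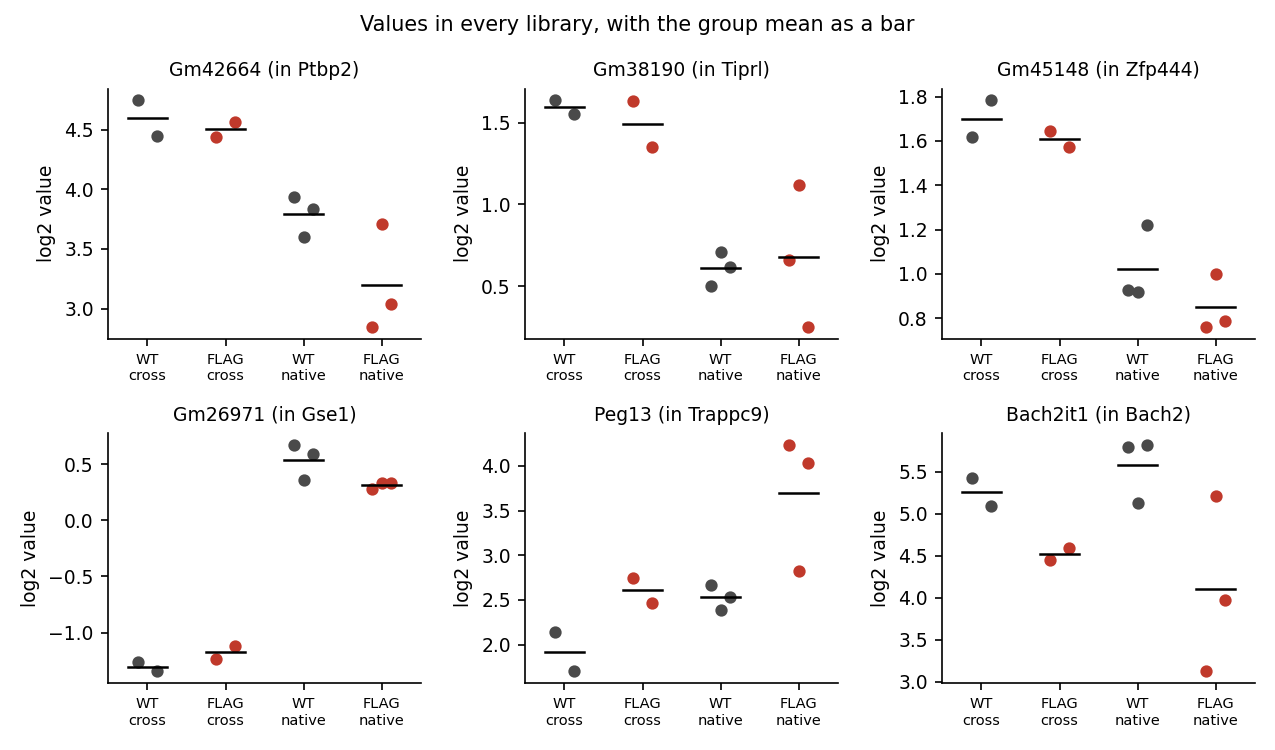
Deposited log2 values (y axis, a separate scale in each panel) of 6 sense intronic genes in the 10 libraries, by genotype and protocol (x axis, red FLAG, grey WT), with the group mean as a bar. Gm42664, Gm38190 and Gm45148 are higher in all crosslinked than in all native libraries, Gm26971 is lower, Peg13 is higher in FLAG in both protocols and Bach2it1 overlaps in the native libraries.

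Without overlap in both genotypes, crosslinked was above native for 12 of the 138 genes, 8.70% beside 8.3% of all genes, and below for 3, 2.17% beside 6.92%. The 3 included Gm26971 and Peg13. Peg13 was at -0.85 ± 0.27 (SE, limma adjusted p = 0.10), so it was higher in FLAG and higher in native libraries. Gm43031 in Akap9, an anchoring protein gene, was at 1.09 ± 0.32 (adjusted p = 0.087). Without FLAG native replicate 2, Peg13 was at -1.03 (adjusted p = 0.020) and Gm43031 at 1.30 (adjusted p = 0.019). Gm13840 in the paxillin gene Pxn was at -0.71 ± 0.35 (adjusted p = 0.29) and Gm10115 in the splicing regulator gene Celf2 at -1.43 ± 0.76 (adjusted p = 0.32), or at -0.73 without WT crosslinked replicate 2.

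A pair of short genes of the class carried the values of small RNAs, so that reads of intron and small RNA cannot be told apart in them. Gm28967 spans 281 bases (chr6:125186361-125186641, minus strand) wholly within Scarna10, a small Cajal body RNA gene, and 235 of its bases overlap an annotated exon of its host Ncapd2, a condensin subunit gene. In the sequence below these bases are in capitals.

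Gm28967: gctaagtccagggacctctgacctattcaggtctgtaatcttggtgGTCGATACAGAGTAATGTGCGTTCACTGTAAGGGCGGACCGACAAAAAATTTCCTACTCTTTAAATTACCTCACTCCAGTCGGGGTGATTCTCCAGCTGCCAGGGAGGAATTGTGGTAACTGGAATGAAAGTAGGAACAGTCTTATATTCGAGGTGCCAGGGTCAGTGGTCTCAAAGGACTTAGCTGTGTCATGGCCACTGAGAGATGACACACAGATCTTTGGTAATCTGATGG

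Its values equalled those of Scarna10 within 0.01 in every library. They were 6.58 and 6.59 in crosslinked FLAG, 5.71 and 6.58 in crosslinked WT, 5.64, 4.40 and 5.48 in native FLAG and 4.23, 5.37 and 2.14 in native WT. Crosslinked exceeded native in both genotypes without overlap, by 1.82 ± 0.53 (SE, limma adjusted p = 0.084). It was at 2.11 without WT native replicate 2 and at 1.38 without WT native replicate 3, each with an adjusted p of 0.043. Paired by replicate number it passed, at 1.45 over all libraries (adjusted p = 0.021), and within WT (adjusted p = 0.029) and within FLAG (adjusted p = 0.0016). FLAG over WT was 0.93 ± 0.52 (SE, adjusted p = 0.31), and ran from 0.40 without WT native replicate 3 to 1.29 without WT native replicate 2. Its reads made up 56.3% of those of Ncapd2 over 1.19% of its length, on the mean of the libraries. Gm12238 has 124 bases (chr11:55482706-55482829, plus strand) in intron 1 of the stress granule gene G3bp1, wholly within the small nucleolar RNA gene Gm22884, whose 140 bases follow with those of Gm12238 in capitals.

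Gm22884: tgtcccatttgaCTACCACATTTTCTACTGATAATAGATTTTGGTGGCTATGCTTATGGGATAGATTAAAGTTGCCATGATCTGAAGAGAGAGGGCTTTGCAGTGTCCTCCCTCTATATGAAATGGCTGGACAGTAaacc

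Gm12238 and Gm22884 differed by at most 0.022 in any library. The levels of Gm12238 were 1.98 and 3.19 in crosslinked FLAG, 3.34 and 3.21 in crosslinked WT, 4.40, 2.72 and 5.20 in native FLAG and 3.19, 3.14 and 2.84 in native WT, with overlap in the native groups. Per kilobase, Gm12238 and Gm28967 were the densest of the class relative to their hosts, at 5.51 and 5.46 on the log2 scale. Next came Gm45464 in Aktip (2.39), which overlaps the antisense coding gene Rbl2, and Peg13 (2.00). Without Gm28967 and Gm12238 the native FLAG over WT median was -0.60.

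Deposited values are not per length, so a longer span holds more reads. The highest mean value of the class was that of AC140264.1 in intron 1 of Rassf3, a Ras association domain gene, at 8.35 over a span of 39031 bases. It was 8.26 and 8.14 in crosslinked FLAG, 8.45 and 7.85 in crosslinked WT, 7.96, 8.61 and 7.82 in native FLAG and 8.99, 8.38 and 9.01 in native WT, so both pairs of groups overlapped. FLAG over WT was -0.38 ± 0.22 (SE, adjusted p = 0.32). Its span overlaps host exons by 304 bases. The next mean values were those of Gm16076 in the neuregulin receptor gene Erbb4 at 5.31, Gm28967 at 5.27, Gm28499 in the Arf regulator gene Agap1 at 4.95, Bach2it1 at 4.86, Gm14093 at 3.93, Gm42664 at 3.92 and Gm37573 in the synaptic adhesion gene Nlgn1 at 3.73. FLAG over WT was -0.74 ± 0.29 for Gm16076, -0.67 ± 0.28 for Gm28499 and -0.36 ± 0.37 for Gm37573, with adjusted p of 0.20, 0.22 and 0.56. Gm37573 ran from -0.58 without FLAG native replicate 2 to -0.06 without FLAG native replicate 1, and was at -0.14 without WT native replicate 1. In all, 122 of the 138 genes had a mean level above 0 and 33 above 2. The 33 had a native FLAG over WT median of -0.92, the 89 between 0 and 2 had -0.55 and the 16 at or below 0 had -0.41. The lowest native median was thus that of the genes with the highest deposited values.

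The class was also split by structure and position, as a description with no test. Genes with 1 exon had a native FLAG over WT median of -0.55 and those with several -0.62. Genes in intron 1 had -0.67 and those in later introns -0.55, and the 29 genes on chromosome 3 had -0.75 beside -0.55 elsewhere. In crosslinked over native FLAG, those 29 genes had a median of 0.54, with 28 above 0, and the other 109 had 0.23, with 76 above 0. The 29 include the 5 genes of Magi3 and the 4 of Rap1a, so they are not independent of each other. The median of the whole class in that comparison, 0.31, became 0.01 without FLAG native replicate 1. Genes with at least 12 A after the end had a native FLAG over WT median of -0.54 and the rest -0.62. The deposited value of a gene went with its span (Spearman's rho 0.38) but not with its exonic length (-0.04), both across 138 genes, which are not independent replicates.

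Known nuclear RNAs are given for scale. Malat1, a nuclear speckle RNA, rose by 1.96 ± 0.26 with crosslinking on the log2 scale (SE, limma adjusted p = 0.0028) and had a FLAG over WT value of 0.28 (adjusted p = 0.52). Neat1, the scaffold of paraspeckles, was higher in FLAG by 1.63 ± 0.28 (adjusted p = 0.037) and at 0.30 for crosslinked over native (adjusted p = 0.61). Kcnq1ot1, an imprinted antisense RNA, was at -0.38 ± 0.15 for FLAG over WT and at 0.38 ± 0.16 for crosslinked over native (adjusted p = 0.21 for both). Miat rose with crosslinking by 1.66 ± 0.40 (adjusted p = 0.042) and was at -0.75 for FLAG over WT (adjusted p = 0.28).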

How the data were processed

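For 10 libraries and 15899 genes, log2 values were deposited by the authors in 1 matrix. Per their methods and the submitters' processing notes, reads were trimmed (cutadapt, Trimmomatic), aligned to GRCm38 with HISAT2 and counted with featureCounts. The methods describe normalization of the counts with DESeq2, the notes name limma, and which of them gave these log2 values was not given in the sources used here. Depth is unknown, and counting errors cannot be given. The values were used as deposited.

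limma 3.58.1 (R 4.3.3) was fitted to all genes (lmFit, eBayes with a trend), with Benjamini-Hochberg adjustment over all genes. Calls needed an adjusted p under 0.05 and a log2 fold change beyond 0.58. The fits were tested on simulated data with the spread of each gene taken from all 10 libraries, where the crosslinked FLAG over WT test made no calls. Crosslinked and native libraries of the same number and genotype deviated together (r = 0.30 and 0.39 in WT, 0.18 and 0.15 in FLAG), a pairing read from the data and not stated in the labels. FLAG over WT over all libraries was fitted without this pairing. Alternatives covered pseudocounts, level filters, quantile normalization, centring, weights, robust fits, group means, GC content and length, left-out libraries and the replicate number as a block. GENCODE M21 on GRCm38 gave the hosts, introns and sequences, and held all 138 genes, 137 of them with the same biotype. A second coding gene could also have been the host of 3 genes, and the shorter was used.

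The genes, lists and tests were chosen with earlier results of these data known. Named are the 8 genes with the highest mean, every called gene, the 5 highest and 5 lowest limma statistics of FLAG over WT and of crosslinked over native (all libraries), their hosts, Mex3a and a few nuclear RNAs. One gene that this rule picked is not reported here. Any others named were chosen after their values were seen. Meg3 and Rian were not analysed here. Python 3.11.15, pandas 2.3.3, numpy 2.4.6, scipy 1.17.1 and pysam 0.24.0 were used.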

Additional observations from a re-analysis of the deposited data

Results flagged for a closer look

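Gm26971 in Gse1 drew attention because its crosslinked FLAG values were both above those of WT (-1.23 and -1.12 against -1.26 and -1.35) while its native FLAG values were all below those of WT (0.28, 0.33 and 0.33 against 0.67, 0.36 and 0.59). The difference between the protocols was -0.35 ± 0.53 on the log2 scale (SE, limma adjusted p = 0.97), so it did not pass the test.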

How the results depend on the processing

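Median log2 fold changes of the 138 genes moved by less than the spread between libraries except in the following settings, although crosslinked over native over all libraries turned from 0.10 to -0.18 with array weights, -0.15 without FLAG native replicates 1 and 3 and -0.0069 with a pseudocount of 8, and in WT from -0.09 to 0.021 with GC content and length of the gene span removed and 0.046 with the replicate block. In native FLAG over WT the median of -0.59 became -0.10 with a pseudocount of 8, -1.07 without replicate 2 of both genotypes and 0.013 without FLAG native replicates 1 and 3 (both chosen after seeing the data). Over all libraries, FLAG over WT became -0.075 with a pseudocount of 8 and -0.065 without FLAG native replicates 1 and 3. The difference between protocols of -0.43 became -0.070, -0.95 and 0.19 under the same 3 settings, and crosslinked over native in FLAG turned from 0.31 to -0.32 without FLAG native replicates 1 and 3. Leaving out 1 library gave medians of -0.85 to -0.40 for native, -0.25 (without WT replicate 2) to -0.045 (without WT replicate 1) for crosslinked and -0.59 to -0.31 for all-library FLAG over WT. The difference between protocols ran from -0.69 to -0.25.

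Counts of called genes moved more. With array weights, 3 were higher and 38 lower in native FLAG (10.4% and 12.1% of all genes), 3 and 20 over all libraries (6.95% and 6.06%), 5 and 1 in crosslinked over native FLAG (1.70% and 4.79%), and 9 and 11 in crosslinked over native over all libraries (6.50% and 6.25%). Of the genes described in that last comparison, Gm28967 (2.04), Gm43031 (0.82) and Gm13840 (-0.90) then passed, with adjusted p of 0.0028, 0.0074 and 0.014. Without replicate 2 of both genotypes, 5 were higher and 44 lower in native FLAG (11.8% and 13.0%), 2 were lower in the difference between protocols (0.138%), and 2 were lower with crosslinking (3.91%). Leaving out 1 library gave 0 to 3 higher and 0 to 31 lower in native FLAG over WT (up to 9.12% and 10.8% of all genes), 0 to 1 and 0 to 2 over all libraries (up to 3.25% and 1.38%), 0 to 6 and 0 to 1 in crosslinked over native FLAG (up to 1.27% and 4.82%), and 0 to 5 and 1 to 2 over all libraries (up to 1.96% and 4.83%), where 3 and 1 were called. In that last comparison a pseudocount of 8 gave 1 higher and 0 lower (0.321% and 0.918% of all genes), a mean level above 2 gave 1 and 0 (1.25% and 2.34%), a mean level above 0 gave 0 lower (2.77%), group means gave 1 higher (0.837%), removing GC content and length of the gene span gave 5 and 0 (1.24% and 3.48%), and leaving out FLAG native replicates 1 and 3 gave 3 lower (2.31%). The cause of these changes was not tested.

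Replicate numbers did not pair FLAG with WT, since deviations of same-numbered native libraries correlated at -0.15, -0.43 and -0.17, and crosslinked ones at -0.27. Paired by number within genotype (chosen after seeing the data), crosslinked over native called 2 genes higher, Gm42664 and Gm28967, and 1 lower over all libraries, beside 0.440% and 2.36% of all genes. With the replicate number alone as a block, 1 gene, Gm28967, was called higher in crosslinked over native in WT and in FLAG (0.170% and 0.352% of all genes), and 0 higher and 1 lower over all libraries (0.226% and 1.69%), while none was called in FLAG over WT. With crossed numbers as a block, crosslinked FLAG over WT called 0 genes. Among the named genes, Gm37573 turned to 0.21 in FLAG over WT without FLAG native replicates 1 and 3. The choice of the longer host left all host differences within the spread. With 2 crosslinked libraries a group, the crosslinked FLAG over WT test made no call of large changes in simulated data that had the spread of all 10 libraries. Depth was unknown, and shifts of low genes could not be resolved.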
